A study of Mus musculus with 8 samples.

Results

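The genes that carry a cell from G1 into S phase were examined in liver RNA of mice whose hepatocytes lacked Usp39 and in control littermates. They comprise the D-type cyclins *Ccnd1*, *Ccnd2* and *Ccnd3*, the E-type cyclins *Ccne1* and *Ccne2*, the kinases *Cdk2*, *Cdk4* and *Cdk6*, the retinoblastoma gene *Rb1* and the transcription factor gene *E2f1*. The rows were taken by gene symbol. All 10 symbols were found among the 55385 gene identifiers of the deposited table, and all 10 were among the 14340 genes tested, those with at least 0.5 FPKM in at least 4 of the 8 livers. FPKM are counts scaled to the exon length of the gene and to the total count of the library, so that levels can be compared between genes.

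Usp39 is a protein of the spliceosome, and the study asked what its loss from hepatocytes does to the liver. *Usp39*-HKO mice were made from *Usp39* fl/fl mice, in which exon 2 is flanked by loxP sites, and an Albumin-Cre line, both on a C57BL/6J background. Control mice were littermates labelled WT, and whether they carried floxed alleles is not given in the sources used here. Whole liver from 4 *Usp39*-HKO and 4 control male mice was sequenced, a library per mouse, at 5 weeks of age after a 16 h fast. Albumin-Cre is a hepatocyte driver, and Usp39 in the other cells of the liver was not measured apart. In whole tissue, a change in the number of cells of a type and a change in RNA per cell cannot be told apart.

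In the textbook scheme, growth signals induce D-type cyclins, which bind Cdk4 and Cdk6 and begin to phosphorylate the Rb protein. Phosphorylated Rb releases E2F factors, which transcribe the E-type cyclins and the genes of DNA replication, and cyclin E with Cdk2 completes the step into S phase. Hepatocytes of the adult liver are mostly quiescent, and cyclin D1 is the D-type cyclin best known for their return to the cycle after partial hepatectomy.

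The libraries held between 8589636 and 10418450 counts. *Usp39* checks the labels, although counts over the whole gene detect the loss of a single exon only in part. The gene (ENSMUSG00000056305) stood at 9.35, 10.4, 8.76 and 9.78 FPKM in control livers 1 to 4 and at 8.37, 8.63, 8.70 and 8.07 FPKM in *Usp39*-HKO livers 1 to 4. Every *Usp39*-HKO liver lay below every control liver, by a narrow margin. edgeR gave a log2 fold change of -0.41 (SE 0.11, adjusted p = 0.0212). The call was lost with library totals in place of TMM scaling (-0.18, adjusted p = 0.241), without *Usp39*-HKO liver 4 (-0.35, adjusted p = 0.0615) and without control liver 4 (-0.41, adjusted p = 0.0547), and over all 15 alternatives, 10 of which kept it, the adjusted p was at most 0.241.

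Control liver 4 stood apart in genes of the exocrine pancreas. The chymotrypsinogen gene *Ctrb1*, the most abundant in that liver of 5 such genes looked at, reached 254 FPKM there and between 0 and 0.124 FPKM in the other controls, and the 5 genes together summed to 402 FPKM against 2.45 to 3.01 FPKM. The edgeR counts of called genes among all genes, the 10 genes, the E2F target genes and the other regulators together are also given without this liver. Scaling mattered as well. TMM factors lay between 0.912 and 0.940 in controls and between 1.012 and 1.19 in *Usp39*-HKO livers. The median log2 fold change over all genes tested was -0.0015 with TMM and 0.23 with library totals alone. With TMM, 48.4% of the genes called were higher in *Usp39*-HKO livers, and with library totals 83.3%. Deposited FPKM carry that shift, whereas the fold changes below are relative to the median gene.

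In the edgeR comparison, 2 of the 10 genes were called at an adjusted p under 0.05, *Ccnd1* and *Ccne1*, both higher in *Usp39*-HKO livers. Over all 14340 genes tested, 3225 (22.5%) were called, 1561 (10.9%) higher and 1664 (11.6%) lower, so the share among the 10 genes was close to that of the transcriptome. No gene of the 10 was called lower by edgeR, DESeq2 or limma, and none was lower at an unadjusted p under 0.05 in any of them. The count was also 2 without control liver 4, and it was 4 with library totals alone, which added *Ccnd2* and *Cdk2*, where 4211 of all 14340 genes were called, 3509 of them higher. Leaving out *Usp39*-HKO liver 1 also gave 4, with *Ccnd2* higher and *Ccnd3* lower. In that fit 3510 of all 14340 genes were called, 1847 higher and 1663 lower. Requiring at least 1 FPKM in 4 livers left 7 genes and 1 call, since *Ccne1*, *Ccne2* and *E2f1* dropped out of the test. At that filter, 2885 of all 12269 genes tested were called. Over all genes, the number called fell to 1931 without control liver 3, 2043 without control liver 4 and 2094 without *Usp39*-HKO liver 4. With the study's own cutoff on effect size (0.5 on the log2 scale, in either direction) and unadjusted p (0.05), 3 of the 10 genes passed (*Ccnd1*, *Ccnd2* and *Ccne1*), against 21.7% of all genes. The median log2 fold change of the 10 genes was 0.17, with a range from -0.28 to 2.43.

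For 4 of the 10 genes, *Ccnd1*, *Ccne1*, *Cdk2* and *Cdk4*, every *Usp39*-HKO liver lay above every control liver on the deposited FPKM, which held for 23.9% of all genes tested, and for none of the 10 did every *Usp39*-HKO liver lie below, against 4.81% of all genes. After rescaling by the TMM factors, *Ccnd1*, *Ccne1* and *Cdk2* kept this separation, 3 of 10 against 11.9% of all genes, and again none of the 10 lay below, against 12.9%.

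**Figure D1:**
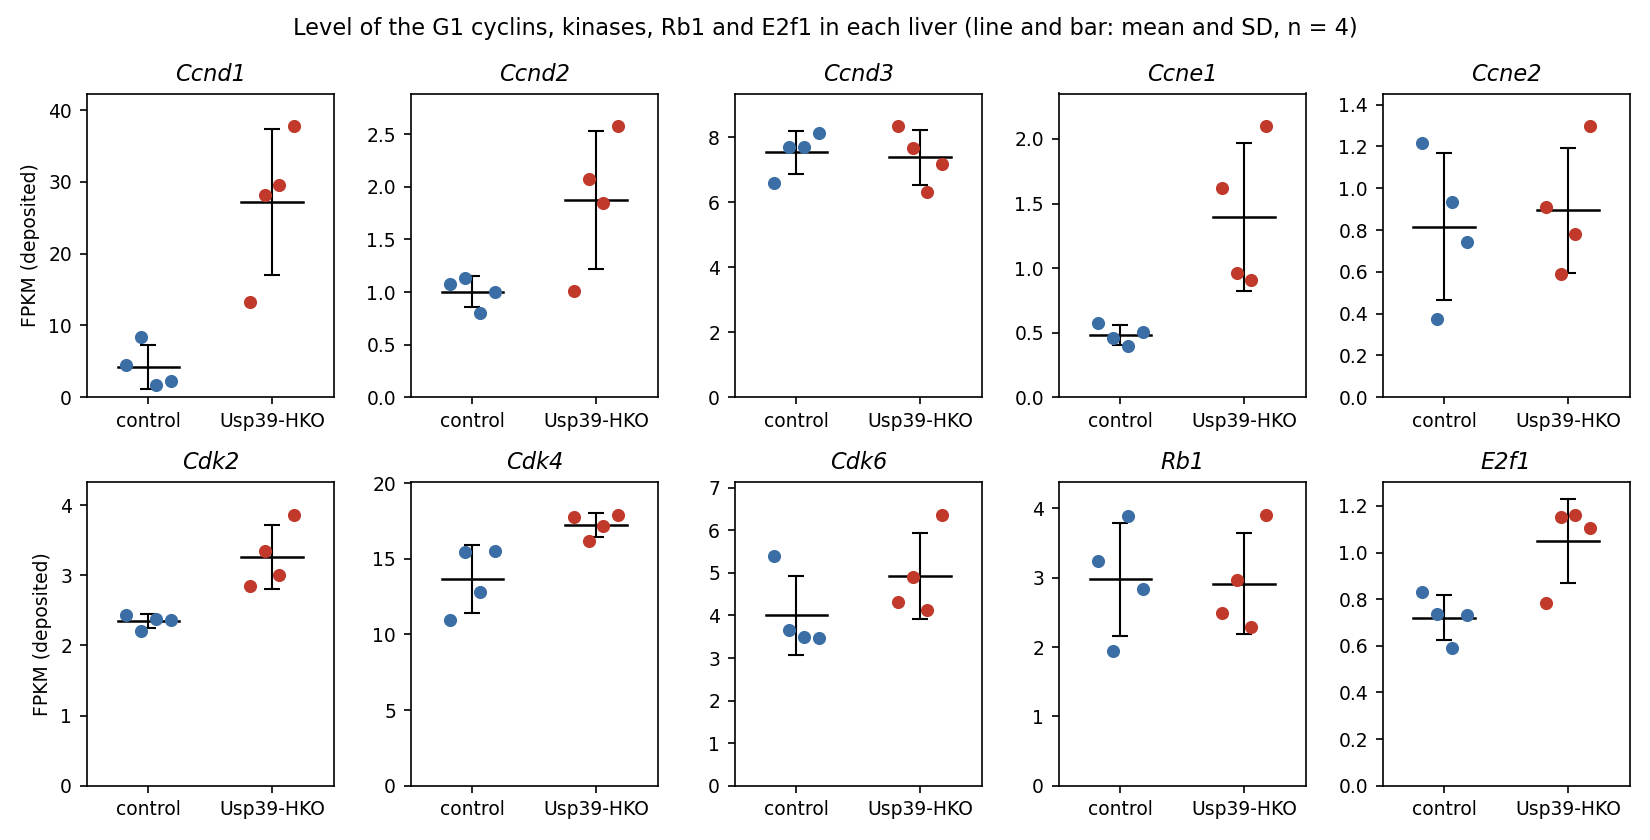
Deposited FPKM of the 10 genes in each liver, with control livers in blue and Usp39-HKO livers in red, each set from replicate 1 on the left to replicate 4 on the right. Lines and bars show the mean and SD of 4 livers, and each vertical axis starts at 0. The Ccnd1 points of the groups lie apart, from 1.73 to 8.40 FPKM in controls and from 13.2 to 37.8 FPKM in Usp39-HKO livers. Those of Ccnd2, Ccnd3, Ccne2, Cdk6, Rb1 and E2f1 overlap.

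The order of the levels changed at its top. Among controls, *Cdk4* was highest at 13.7 ± 2.24 FPKM (SD, n = 4), above *Ccnd3* in each of the 4 livers, while *Ccnd1* (4.21 ± 3.02 FPKM) and *Cdk6* (4.00 ± 0.930 FPKM) were neighbours whose ranges overlapped. *Ccne1* was lowest, at 0.481 ± 0.0760 FPKM, below *E2f1* in each control liver. In *Usp39*-HKO livers, *Ccnd1* came first at 27.2 ± 10.2 FPKM (SD, n = 4), above *Cdk4* (17.3 ± 0.789 FPKM) in 3 of 4 livers, and *Ccne2* came last. Below *Ccnd2*, the neighbours *Ccne1*, *E2f1* and *Ccne2* overlapped in those livers and had no order beyond their spread.

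*Ccnd1* (ENSMUSG00000070348) encodes cyclin D1 and lies on the minus strand of GRCm38 at chr7:144929931-144939925. Its level was 4.42, 8.40, 1.73 and 2.28 FPKM in control livers 1 to 4 and 13.2, 28.2, 29.6 and 37.8 FPKM in *Usp39*-HKO livers 1 to 4. The lowest *Usp39*-HKO liver, liver 1, was above the highest control, liver 2, and both groups were widely spread. edgeR gave a log2 fold change of 2.43 (SE 0.43, adjusted p = 0.00321), a 5.39-fold rise between the groups, with 4 of 4 *Usp39*-HKO livers above every control. The gene was called under all 15 alternatives, with an adjusted p of at most 0.0137. Of its exon bases, 23.4% also belong to *LTO1* on the opposite strand, and whether counting used strand is not given in the sources used here. *LTO1* held 60 to 132 counts in controls and 119 to 194 in *Usp39*-HKO livers, while *Ccnd1* held at least 70 and 606.

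*Ccnd2* (ENSMUSG00000000184, minus strand, chr6:127125162-127152193), which encodes cyclin D2, was less abundant. It stood at 1.08, 1.14, 0.804 and 1.0 FPKM in controls and at 1.0, 2.07, 1.85 and 2.58 FPKM in *Usp39*-HKO livers. Livers 2 to 4 of the *Usp39*-HKO group were above every control, and liver 1 was within the control range. The log2 fold change of 0.65 (SE 0.22) did not pass the correction in edgeR (adjusted p = 0.0543). It passed with DESeq2, also run without the filter (0.63, adjusted p = 0.0407), and in edgeR without a filter on low values (0.61, adjusted p = 0.032). It passed as well with library totals alone (0.90, adjusted p = 0.0178) and without *Usp39*-HKO liver 1 (0.85, adjusted p = 0.0025). Over all alternatives the adjusted p was at most 0.154.

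For *Ccnd3* (ENSMUSG00000034165, plus strand, chr17:47505051-47599691), the gene of cyclin D3, the values were 6.60, 7.71, 7.69 and 8.15 FPKM in controls and 8.35, 7.68, 6.32 and 7.19 FPKM in *Usp39*-HKO livers. The groups overlapped, with the highest and the lowest of the 8 values both in the *Usp39*-HKO group. The log2 fold change was -0.26 (SE 0.12, adjusted p = 0.147) with TMM and -0.03 with library totals alone, and it was called only when *Usp39*-HKO liver 1 was left out (-0.34, adjusted p = 0.0439), with an adjusted p of at most 0.864 over the alternatives.

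The makeup of the D-type cyclin transcripts does not depend on scaling between libraries. *Ccnd1* made up 36.5%, 48.7%, 16.9% and 20% of their summed FPKM in control livers 1 to 4 and 58.6%, 74.3%, 78.3% and 79.5% in *Usp39*-HKO livers 1 to 4. Cyclin D3 transcripts were thus the larger part in 3 of 4 controls and cyclin D1 transcripts in each *Usp39*-HKO liver. *Ccnd2* stayed between 6.59% and 8.90% in controls and between 4.45% and 5.46% in *Usp39*-HKO livers. The sum of all 3 was 12.8 ± 3.10 FPKM (SD, n = 4) in controls and 36.5 ± 10.3 FPKM (SD, n = 4) in *Usp39*-HKO livers. These shares are descriptions and were not tested.

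**Figure D2:**
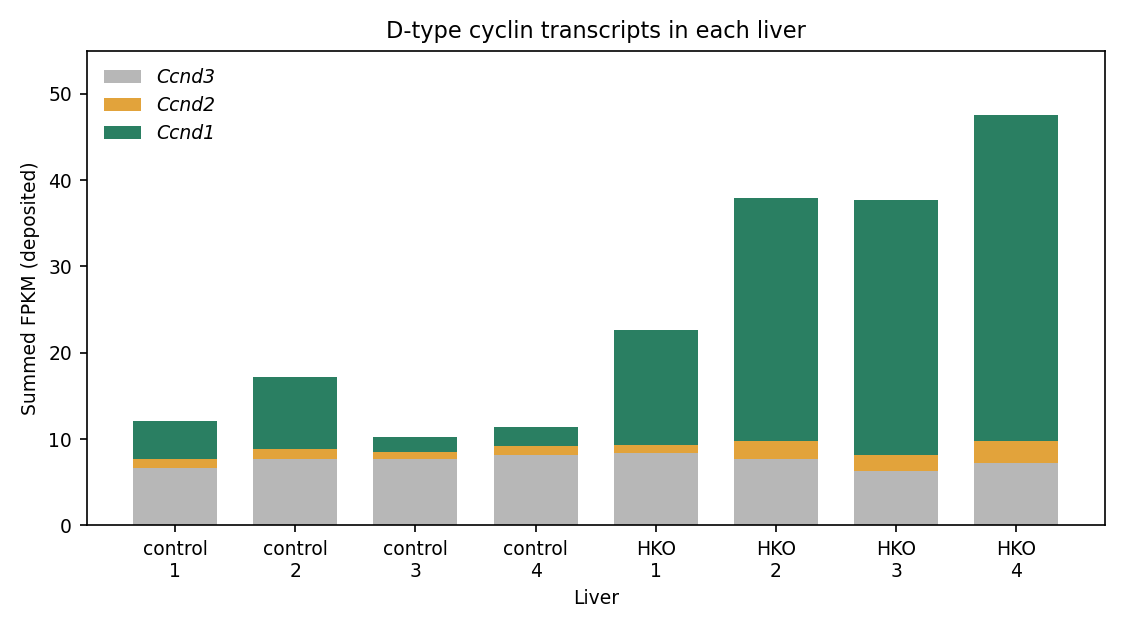
Summed FPKM of Ccnd3 (grey), Ccnd2 (orange) and Ccnd1 (green) in each of the 8 livers, where HKO stands for Usp39-HKO. The grey part stays between 6.32 and 8.35 FPKM in every liver, and the green part spans 1.73 to 8.40 FPKM in controls and 13.2 to 37.8 FPKM in Usp39-HKO livers.

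Cyclin E1 and cyclin E2, the partners of Cdk2, had the lowest mean levels among the cyclins in control livers. *Ccne1* (ENSMUSG00000002068, minus strand, chr7:38097984-38107534) stood at 0.573, 0.455, 0.394 and 0.505 FPKM in controls and at 1.62, 0.958, 0.906 and 2.10 FPKM in *Usp39*-HKO livers. Livers 1 and 4 of the *Usp39*-HKO group were the highest, and none overlapped the controls. These levels rest on 9 to 14 counts per control library and 23 to 53 per *Usp39*-HKO library, and only 2 of 4 controls reached the filter of 0.5 FPKM. edgeR gave a log2 fold change of 1.28 (SE 0.31, adjusted p = 0.0144), a 2.43-fold rise between the groups, with 4 of 4 *Usp39*-HKO livers above every control. With 1 liver left out in turn the adjusted p lay between 0.0116 and 0.0478, and the call held in all 14 alternatives in which the gene was tested. No other annotated gene overlaps its exons.

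In contrast, *Ccne2* (ENSMUSG00000028212, plus strand, chr4:11191351-11204779) stood at 1.22, 0.375, 0.933 and 0.742 FPKM in controls and at 0.913, 0.589, 0.780 and 1.30 FPKM in *Usp39*-HKO livers, from 13 to 43 counts. The groups overlapped throughout. The log2 fold change was -0.11 (SE 0.34, adjusted p = 0.86), and it was 0.14 with library totals alone, so no direction was resolved at this depth. Of its exon bases, 17.4% also belong to *Ints8* on the opposite strand, which held 141 to 238 counts. Whether the changes of *Ccne1* and *Ccne2* differ from each other was not tested. *Ccne1* made up 29.7% to 54.8% of the summed FPKM of both genes in controls and 53.7% to 64.0% in *Usp39*-HKO livers.

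Because E2F factors are known to act at promoters of this pathway, RefSeq promoter windows (GRCm38.p6, 250 bases before to 50 after the start) were searched on both strands for the letters TTTCGCGC, TTTGGCGC, TTTCCCGC and TTTGCCGC, which can overlap one another where they meet on opposite strands. Any of them was present in 2.26% of the 32851 windows of the table, and singly they were present in 0.323%, 0.514%, 1.07% and 0.441%. Windows were matched for 6 of the 10 genes (7 windows, as *Ccnd3* has 2), and *Ccnd1*, *Ccnd2*, *Ccne2* and *Rb1* were not matched. Only the *Cdk2* window held a match. The windows of *Ccne1*, the called gene with a window, and of *Cdk2* are shown 5′ to 3′, with matched letters in capitals. That of *Ccne1* lies at chr7:38107441-38107740 and that of *Cdk2* at chr10:128705002-128705301, both on the minus strand.
Ccne1: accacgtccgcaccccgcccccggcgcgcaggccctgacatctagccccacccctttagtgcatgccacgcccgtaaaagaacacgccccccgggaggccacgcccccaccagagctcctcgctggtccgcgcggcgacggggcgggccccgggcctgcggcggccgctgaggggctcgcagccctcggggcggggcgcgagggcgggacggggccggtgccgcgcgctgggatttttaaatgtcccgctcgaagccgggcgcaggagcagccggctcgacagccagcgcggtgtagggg
Cdk2: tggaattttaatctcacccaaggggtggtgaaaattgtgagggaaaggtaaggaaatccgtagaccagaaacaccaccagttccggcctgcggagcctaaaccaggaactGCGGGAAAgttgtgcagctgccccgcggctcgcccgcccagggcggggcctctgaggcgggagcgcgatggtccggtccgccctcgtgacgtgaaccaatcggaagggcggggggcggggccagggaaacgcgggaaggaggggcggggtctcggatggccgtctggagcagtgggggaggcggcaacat
The capitals in *Cdk2* are TTTCCCGC read on the other strand and begin 140 bases before the start. A match describes letters in this window and does not show that a factor binds there.

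*Cdk2* (ENSMUSG00000025358, minus strand, chr10:128697939-128705031), the kinase partner of the E-type cyclins, stood at 2.43, 2.21, 2.38 and 2.36 FPKM in controls and at 2.85, 3.34, 3.0 and 3.87 FPKM in *Usp39*-HKO livers. The controls lay close together, and each *Usp39*-HKO liver was above all of them. Relative to the median gene the difference was small, with a log2 fold change of 0.24 (SE 0.11, adjusted p = 0.148). It was called with library totals alone (0.48, adjusted p = 0.0195) and with limma on log2(FPKM + 1) (0.34, adjusted p = 0.0337) or log2(FPKM + 0.1) (0.45, adjusted p = 0.0294), which keep the shift of the median gene, and over all alternatives the adjusted p was at most 0.431.

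*Cdk4* (ENSMUSG00000006728, plus strand, chr10:127063534-127067920) is a kinase of the D-type cyclins. Its FPKM was 10.9, 15.5, 12.8 and 15.5 in controls and 17.8, 16.2, 17.2 and 17.9 in *Usp39*-HKO livers, and the groups did not overlap. Rescaled by the TMM factors, the values were 12.0, 16.8, 14.0 and 16.5 in controls and 17.6, 14.9, 16.1 and 15.1 in *Usp39*-HKO livers, which overlap. The separation in deposited FPKM was therefore not kept after rescaling. The log2 fold change was 0.10 (SE 0.12, adjusted p = 0.588) with TMM. With library totals alone it was 0.33 (adjusted p = 0.0647), where that of the median gene was 0.23. Of the *Cdk4* exon bases, 19.7% belong also to *Tspan31* on the opposite strand, which held 2056 to 3372 counts per library against 326 to 561 for *Cdk4*. Without a stated strand setting, reads from the shared bases cannot be told apart.

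*Cdk6* (ENSMUSG00000040274, plus strand, chr5:3341485-3531008), the other kinase of the D-type cyclins, stood at 5.40, 3.65, 3.5 and 3.47 FPKM in controls and at 4.33, 4.89, 4.12 and 6.37 FPKM in *Usp39*-HKO livers. Control liver 1 stood above its group and overlapped the *Usp39*-HKO livers. Its log2 fold change was 0.05 (SE 0.16, adjusted p = 0.851). *Cdk4* made up 66.9% to 81.7% of the summed FPKM of the kinases Cdk4 and Cdk6 in controls and 73.8% to 80.6% in *Usp39*-HKO livers. Set against those kinases, the summed FPKM of the D-type cyclins was 0.718 ± 0.137 per unit (SD, n = 4) in controls and 1.64 ± 0.418 (SD, n = 4) in *Usp39*-HKO livers, and the ranges of 0.601 to 0.902 and 1.02 to 1.96 did not overlap.

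*Rb1* (ENSMUSG00000022105, minus strand, chr14:73183673-73325822), whose protein holds E2F factors inactive, stood at 3.24, 1.95, 3.89 and 2.84 FPKM in controls and at 2.50, 2.97, 2.28 and 3.91 FPKM in *Usp39*-HKO livers. The groups overlapped, and each varied by more than the difference between them. Its log2 fold change was -0.28 (SE 0.20, adjusted p = 0.367) with TMM and -0.03 with library totals alone. The exons of *Rb1* share 14.9% of their bases with *Lpar6* and *Rcbtb2* on the opposite strand.

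*E2f1* (ENSMUSG00000027490, minus strand, chr2:154559407-154569892), the best-studied activator of the E2F family, stood at 0.83, 0.736, 0.591 and 0.730 FPKM in controls and at 0.783, 1.15, 1.16 and 1.10 FPKM in *Usp39*-HKO livers, from 16 to 37 counts. Livers 2 to 4 of the *Usp39*-HKO group were above every control, and liver 1 was within the control range. The log2 fold change of 0.30 (SE 0.22, adjusted p = 0.366) was not called, nor was it under any of the 14 alternatives in which the gene was tested.

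**Figure D3:**
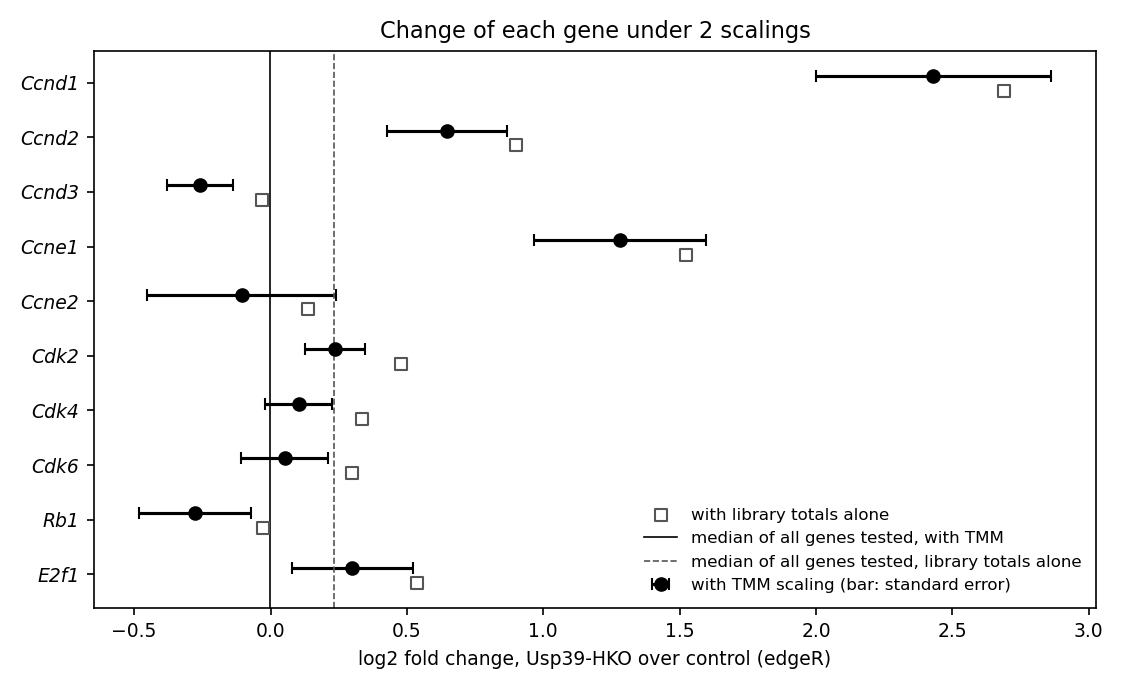
Change between groups on the log2 scale for the 10 genes, above 0 when higher in Usp39-HKO livers, from edgeR with TMM scaling (black, bars are standard errors) and with library totals alone (open squares). Vertical lines mark the median of all genes tested, -0.0015 with TMM and 0.23 with library totals. Ccnd1 and Ccne1 lie far to the right under both scalings, and Ccne2 changes sign between them.

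Other regulators of the same step were read from 4 lists. The first held the pocket proteins and the E2F family with their dimer partners. Of its 11 genes, *E2f2* and *E2f7* fell below the filter, and 0 of the 9 tested were called by edgeR. At an unadjusted p under 0.05, 2 were higher and 2 lower. DESeq2 also called 0, and limma on log2(FPKM + 1) called 2 higher. Over all genes, edgeR called 22.5%, and limma called 3031 of 14340 higher and 637 lower. DESeq2 called 1824 of 28412 genes higher and 1920 lower. The median log2 fold change of the 9 tested genes was 0.06. The nearest to the threshold was *Rbl1*, the gene of the pocket protein p107, at 1.04, 0.724, 0.855 and 0.945 FPKM in controls and 1.73, 1.72, 1.0 and 1.99 FPKM in *Usp39*-HKO livers. *Usp39*-HKO liver 3 lay within the control range, and the log2 fold change was 0.62 (SE 0.21, adjusted p = 0.0582).

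CDK inhibitors were tested at 5 of 7 genes, as *Cdkn2a* and *Cdkn2b* fell below the filter. edgeR and DESeq2 called 0 of them, 1 was higher at an unadjusted p under 0.05, and limma on log2(FPKM + 1) called 2 higher, beside the same counts over all genes as for the pocket proteins. All 5 log2 fold changes were above 0, from 0.18 to 0.80, with a median of 0.31. *Cdkn1a*, an inhibitor of Cdk2 complexes induced by p53, was the most abundant transcript among these inhibitors. Its level was 29.3, 41.6, 32.7 and 47.4 FPKM in controls and 63.2, 46.4, 81.0 and 45.6 FPKM in *Usp39*-HKO livers. Livers 1 and 3 of the *Usp39*-HKO group were above every control, and livers 2 and 4 lay within the control range. Its log2 fold change was 0.43 (SE 0.22, adjusted p = 0.183).

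The list of CDK activation and cyclin turnover gave the only edgeR calls with TMM among these regulators, 3 of 11 genes tested, 2 higher and 1 lower, where 22.5% of all genes were called. *Wee1*, a kinase that holds Cdk1 and Cdk2 inactive, stood at 1.56, 1.1, 1.63 and 1.07 FPKM in controls and at 5.36, 4.02, 7.08 and 6.36 FPKM in *Usp39*-HKO livers. Each *Usp39*-HKO liver was far above the controls, and the log2 fold change was 1.85 (SE 0.22, adjusted p = 0.000591). *Cdc25a*, a phosphatase that reverses the action of Wee1, rose as well, from 0.813 ± 0.196 to 1.77 ± 0.476 FPKM (SD, n = 4 each), with a log2 fold change of 0.87 (SE 0.20, adjusted p = 0.0113).

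*Fbxo31*, an F-box protein described as a receptor for the turnover of cyclin D1, went the other way. It stood at 19.0, 27.6, 23.6 and 28.3 FPKM in controls and at 16.3, 10.7, 11.4 and 6.87 FPKM in *Usp39*-HKO livers. No *Usp39*-HKO liver reached the lowest control, liver 1, and the log2 fold change was -1.34 (SE 0.25, adjusted p = 0.00401). *Ambra1*, another adaptor for the turnover of D-type cyclins, stood at 6.01 ± 0.311 FPKM (SD, n = 4) in controls and 6.91 ± 0.469 FPKM (SD, n = 4) in *Usp39*-HKO livers, with a log2 fold change of -0.03 (SE 0.093, adjusted p = 0.831) with TMM and 0.20 with library totals alone.

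Of the 5 genes of the MuvB core, which with pocket proteins represses cell cycle genes in quiescent cells, edgeR and DESeq2 called 0. In edgeR, 1 was higher at an unadjusted p under 0.05. limma on log2(FPKM + 1) called 2 higher, beside the same counts over all genes as for the pocket proteins. Over the 4 lists together, 3 of 30 tested genes were called with TMM, where 22.5% of all genes were called, and 13 with library totals alone, 12 of them higher, where 4211 of all 14340 genes were called. The small number of calls among these regulators therefore depends on taking out the shift of the median gene, and it was also 3 without control liver 4.

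E2F target genes were read from a further list. Of 20 listed, 16 were tested, and 11 were called higher and 0 lower, where 10.9% of all genes were called higher. None was lower at an unadjusted p under 0.05, and DESeq2 and limma called none lower either. The median log2 fold change was 0.68 with TMM and 0.92 with library totals. The count was 7 without control liver 4, where 1020 of all 14340 genes were called higher. It was also 7 without control liver 1, where 1124 of all genes were called higher. The 11 called genes were *Ccna2*, *Cdk1*, *Mki67*, *Rrm1*, *Rrm2*, *Tyms* and 5 of the 6 genes of the MCM helicase (*Mcm2*, *Mcm3*, *Mcm5*, *Mcm6* and *Mcm7*). *Mcm4*, *Pcna*, *Cdt1* and *Tk1* were not called, at log2 fold changes of 0.46, 0.36, 0.15 and -0.40. *Cdc6*, *Mybl2*, *Pola1* and *Chaf1a* fell below the filter.

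*Ccna2*, the gene of cyclin A2, which takes over from cyclin E in S phase, stood at 0.640, 1.19, 0.713 and 0.705 FPKM in controls and at 4.03, 4.54, 3.18 and 6.64 FPKM in *Usp39*-HKO livers. Control liver 2 was the highest of its group and still below every *Usp39*-HKO liver. The log2 fold change was 2.25 (SE 0.24, adjusted p = 0.000406). *Cdk1*, the mitotic kinase that cyclin A2 also binds, stood at 0.706, 1.21, 0.590 and 0.914 FPKM in controls and at 5.42, 3.44, 2.53 and 4.62 FPKM in *Usp39*-HKO livers, a log2 fold change of 1.99 (SE 0.28, adjusted p = 0.00114). Here too the groups did not overlap.

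*Mcm5*, a subunit of the replicative helicase, stood at 0.355, 0.909, 0.233 and 0.529 FPKM in controls, of which 2 reached the filter, and at 2.42, 1.92, 1.71 and 2.96 FPKM in *Usp39*-HKO livers. Its log2 fold change was 1.89 (SE 0.33, adjusted p = 0.00322). *Mki67*, the proliferation marker Ki-67, was 1.2 ± 0.373 FPKM (SD, n = 4) in controls and 4.42 ± 1.70 FPKM (SD, n = 4) in *Usp39*-HKO livers, with a log2 fold change of 1.63 (SE 0.26, adjusted p = 0.00211). In each of these 4 genes every *Usp39*-HKO liver was above every control, also after TMM rescaling.

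**Figure D4:**
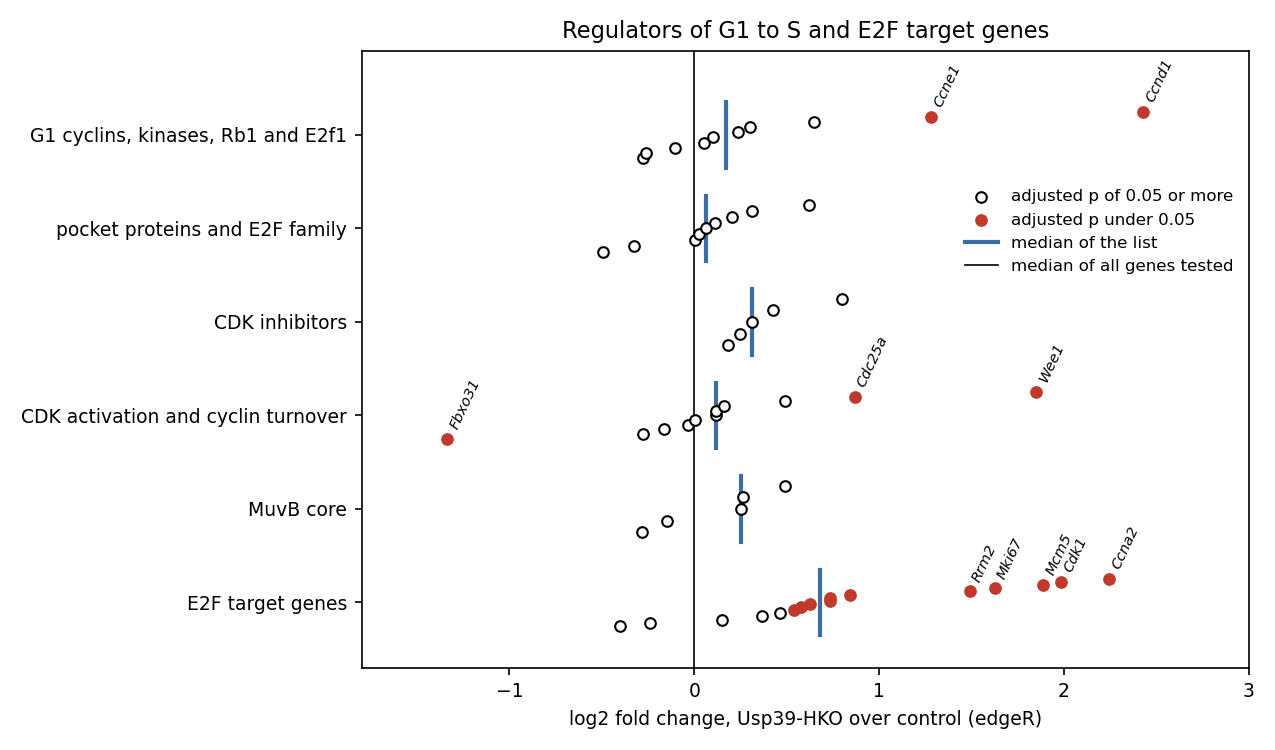
Change between groups on the log2 scale, above 0 when higher in Usp39-HKO livers (edgeR with TMM), for each tested gene of the 6 lists, with genes at an adjusted p under 0.05 filled in red. Blue bars are list medians and the vertical line is the median of all genes tested, -0.0015. The E2F target genes have the median farthest to the right, 0.68, and 11 filled points.

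The E2F letters above were present in 8 of 18 promoter windows of target genes and in 9 of 41 windows of other regulators. Of all windows, 2.26% held them. By gene, these were windows of 8 of the 17 target genes and 8 of the 28 other regulators that had a window. Target genes were listed because E2F binding is known for them, so the share is a description of that choice. The windows of *Cdk1* (chr10:69352863-69353162, minus strand) and *Mcm5* (chr8:75109259-75109558, plus strand) are shown as those of the most strongly raised of the tested target genes with both a window and a match, again 5′ to 3′ with matches in capitals.
Cdk1: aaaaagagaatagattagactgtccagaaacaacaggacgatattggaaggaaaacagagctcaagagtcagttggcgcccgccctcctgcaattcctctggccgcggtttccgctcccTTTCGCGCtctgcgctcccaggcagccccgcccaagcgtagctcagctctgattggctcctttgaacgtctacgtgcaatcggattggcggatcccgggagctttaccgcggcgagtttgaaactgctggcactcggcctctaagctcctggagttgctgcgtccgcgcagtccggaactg
Mcm5: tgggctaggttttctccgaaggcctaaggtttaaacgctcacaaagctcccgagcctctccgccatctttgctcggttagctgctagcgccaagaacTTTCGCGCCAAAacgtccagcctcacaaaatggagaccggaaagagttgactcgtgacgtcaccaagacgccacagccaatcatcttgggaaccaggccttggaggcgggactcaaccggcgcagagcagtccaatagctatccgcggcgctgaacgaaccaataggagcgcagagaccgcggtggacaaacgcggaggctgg
The *Cdk1* match is TTTCGCGC, 131 bases before the start. In *Mcm5*, TTTCGCGC overlaps TTTGGCGC on the other strand, and the capitals begin 153 bases before the start.

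The profile of *Ccnd1* across the 8 livers was set against the 14330 tested genes outside the 10 by the root mean square distance of log2(FPKM + 1), each centred on its own mean. The 5 nearest were *Acot2* (distance 0.233), *Lgals1* (0.255), *S100a11* (0.38), *Cd63* (0.398) and *Pdk4* (0.413). *Acot2*, a mitochondrial acyl-CoA thioesterase, stood at 18.9, 38.6, 11 and 12.5 FPKM in controls and at 59.0, 91.9, 106 and 102 FPKM in *Usp39*-HKO livers. *Lgals1*, the gene of galectin-1, spanned 2.44 to 5.81 FPKM in controls and 10.9 to 30.0 FPKM in *Usp39*-HKO livers. The log2 fold changes of the 5 lay between 1.9 and 2.34, which follows from their choice by likeness to *Ccnd1*. No E2F target gene was among them, but adding 1 to the FPKM shrinks the changes of genes at low levels. With limma on this scale the log2 fold change was 2.52 for *Ccnd1* and 1.60 for *Ccna2*, against 2.43 and 2.25 with edgeR. The absence of E2F target genes is therefore not a result about them.

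Markers of some other liver cell types were called, and their values stand beside the rise of *Ccnd1*. Of the tested T cell, B cell and neutrophil markers, 0 were called. Over all genes tested, 10.9% were called higher and 11.6% lower, against which the counts of markers are read. For bile duct cells, 4 of 4 tested markers were called higher (*Krt19*, *Epcam*, *Sox9* and *Cldn7*; *Krt7* fell below the filter), and the 5 summed to 3.69, 4.07, 3.5 and 4.37 FPKM in controls and 5.50, 12.9, 14.8 and 26.1 FPKM in *Usp39*-HKO livers. *Epcam* spanned 0.844 to 1.29 FPKM in controls and 1.55 to 9.37 FPKM in *Usp39*-HKO livers, and *Sox9*, which was above it in every control, 1.34 to 2.11 FPKM and 1.54 to 7.40 FPKM. *Sox9* kept its call in 6 of 15 alternatives. *Cldn7* reached the filter of 0.5 FPKM in 1 of 4 controls and *Krt19* in 3. In the *Usp39*-HKO group the livers ranked alike in the marker sum and in *Ccnd1*, with liver 1 lowest and liver 4 highest. Controls did not share an order, since *Ccnd1* was highest in liver 2 and the marker sum in liver 4.

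For stellate cells or fibroblasts, 4 of 5 markers were called higher, and the sum was 25.0, 25.7, 20.6 and 17.7 FPKM in controls and 31.7, 72.3, 63.3 and 73.6 FPKM in *Usp39*-HKO livers, with *Col3a1* the most abundant. For macrophages or Kupffer cells, 4 of 5 were called higher, and the sum was 152, 197, 145 and 170 FPKM in controls and 258, 278, 268 and 386 FPKM in *Usp39*-HKO livers, with *Clec4f* the most abundant. Both sums lay higher in every *Usp39*-HKO liver than in every control. No defining marker of bile duct cells, stellate cells or macrophages was at 0 in any liver.

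Hepatocyte markers identify the tissue, with *Alb* between 7170 and 8355 FPKM in controls and between 7281 and 9767 FPKM in *Usp39*-HKO livers. Of these 5 markers, *Cps1* alone was called, lower, and it kept the call in 5 of 15 alternatives. Their sum was 13949, 15122, 14295 and 13103 FPKM in controls and 16126, 12281, 15108 and 12613 FPKM in *Usp39*-HKO livers, which overlap. Of 5 endothelial markers 2 were called lower, *Stab2*, which kept the call in 3 of 15 alternatives, and *Lyve1*, which kept it in 14. The sums of 79.5 to 85.2 FPKM in controls and 72.9 to 84.1 FPKM in *Usp39*-HKO livers overlapped, whereas after TMM rescaling they were 87.1 to 93.4 and 67.8 to 83.1 and did not overlap. *Pecam1* and *Cdh5* were not called (log2 fold changes of 0.11 and 0.09) and were higher in every *Usp39*-HKO liver on deposited FPKM, *Cdh5* at 19.0 to 24.7 FPKM against 16.3 to 17.5 FPKM, and overlapped after TMM rescaling. Each was called in 3 of 15 alternatives.

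Red cell markers fell. Of 4 tested erythroid markers 3 were called lower (*Hba-a1*, *Hbb-bs* and *Alas2*), and the sum, with *Hbb-bs* the most abundant, was 296 to 631 FPKM in controls and 142 to 306 FPKM in *Usp39*-HKO livers. T cell markers summed to between 1.42 and 1.84 FPKM in controls and between 2.14 and 3.11 FPKM in *Usp39*-HKO livers, B cell markers to between 3.98 and 5.70 FPKM and between 3.99 and 6.36 FPKM, and neutrophil markers to between 17.7 and 48.4 FPKM and between 10.8 and 77.0 FPKM. Of these 3 sums, that of T cells alone did not overlap on deposited FPKM, and after TMM rescaling it overlapped, with controls at 1.56 to 2.02 and *Usp39*-HKO livers at 2.01 to 3.08. Of the tested markers, 0 of 3 were called for T cells, 0 of 4 for B cells and 0 of 3 for neutrophils. Erythroid sums overlapped on deposited FPKM and did not after rescaling, at 325 to 684 and 121 to 288. The part of other cells in the levels of *Ccnd1*, *Ccne1* and the E2F target genes was not tested. With control liver 4 and its pancreatic transcripts left out, the log2 fold change of *Ccnd1* was 2.22 (adjusted p = 0.0137) and that of *Ccne1* 1.29 (adjusted p = 0.0422).

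**Figure D5:**
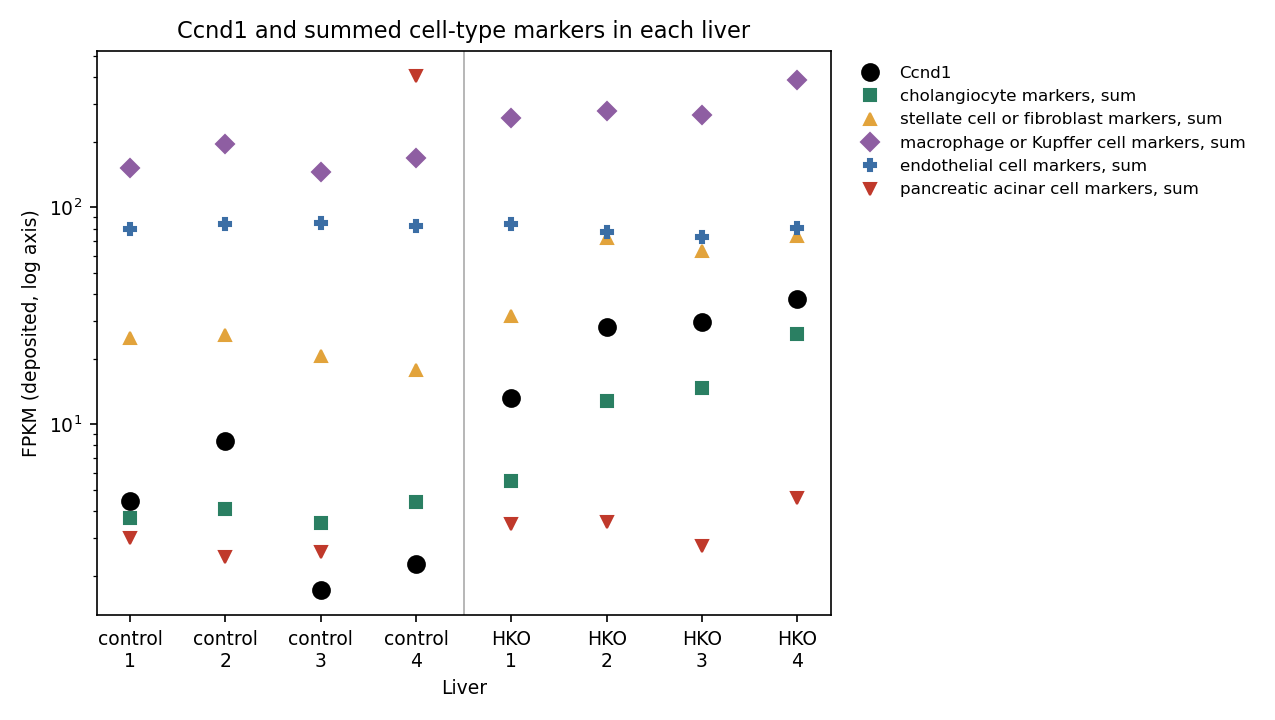
FPKM of Ccnd1 and summed FPKM of the markers of 5 cell types in each liver, on a log axis, where HKO stands for Usp39-HKO. Bile duct, stellate and macrophage sums are higher in each Usp39-HKO liver than in each control, endothelial sums overlap on these deposited values, though not after TMM rescaling, and pancreatic sums are below 5 FPKM except in control liver 4, at 402 FPKM.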

How the data were processed

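RNA of whole liver from 4 *Usp39*-HKO and 4 control male mice was sequenced, a library per mouse (TRIzol, NEB Next Ultra RNA kit, Illumina NovaSeq, paired ends). According to the submitters' processing notes, the authors used Trim Galore 0.6.1, FastQC 0.11.9, HISAT2, Picard, featureCounts and DESeq2, with mm10 as the genome. Apart from the study's cutoff on p and fold change, the settings of these tools are not given in the sources used here. The annotation release, the strand setting and the treatment of multi-mapping reads are not given in the sources used here. The deposited table holds raw read counts per gene and library and FPKM made by the authors from those counts. Counts divided by exon length and library total gave the deposited FPKM back, with a largest relative difference of 1.96e-05%. The table has 55699 rows for 55385 gene identifiers, and repeated rows differ in symbol alone. The authors' comparison columns (mean, log2 fold change, its standard error, statistic, p, adjusted p and direction) were not used.

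Raw counts were compared with the quasi-likelihood test of edgeR 4.0.16 in R 4.3.3, with TMM scaling, for genes with at least 0.5 FPKM in at least 4 of the 8 livers. P values were two-sided and adjusted by Benjamini-Hochberg over all 14340 genes tested, and genes under an adjusted p of 0.05 were called. The common biological coefficient of variation was 0.179. P values set the difference between genotypes against the spread between libraries, each from a different mouse. Totals of 8589636 to 10418450 counts put the limit that a count of 0 allows, 3 counts, at 0.288 to 0.349 CPM, which covers counting error only. Between replicates of a group, counts spread by a chi-square per degree of freedom of 7.02 to 36.4, so that the spread between libraries exceeded counting error. The test was tested on simulated data.

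Alternatives were edgeR with RLE size factors, edgeR with library totals, no filter on low values, a filter at 1 FPKM, DESeq2 1.42.0, limma 3.58.1 on log2(FPKM + 1) and log2(FPKM + 0.1), the study's cutoff, and each library left out in turn. DESeq2 was run without the filter on low values, on 28412 genes, so that it changed tool and filter together. Groups were said not to overlap when every liver of a group lay above every liver of the other. Tables and figures were made with Python 3.11.15, numpy 2.4.6, pandas 2.3.3 and matplotlib 3.10.9.

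Lists held the 10 named genes, pocket proteins and the E2F family (11 genes), CDK inhibitors (7), CDK activation and cyclin turnover (12), the MuvB core (5), E2F target genes (20), and 5 markers each of hepatocytes, cholangiocytes (bile duct cells), stellate cells or fibroblasts, endothelial cells, macrophages or Kupffer cells, T cells, B cells, neutrophils, erythroid cells and pancreatic acinar cells. The T cell marker *Trac* was not in the table under that symbol. The members and lists were chosen with earlier results of these data known. Genes named are the 10 genes, *Usp39*, of each other list the called genes (at most 4 by size of the log2 fold change) with those needed to say which were not called, the 5 tested genes nearest to *Ccnd1* in profile, markers, and genes that overlap exons of the 10. *Rbl1*, *Cdkn1a* and *Ambra1*, given with values though not called, were chosen after their values were seen. Gene positions and exon overlaps come from GENCODE vM21, and promoter windows from RefSeq. The values of a gene of the E2F target list are not reported here. Planned comparisons of protein sequences were left out for want of a protein table.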

Additional observations from a re-analysis of the deposited data

Results flagged for a closer look

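In 7 of the 72 groups of 4 livers looked at, 1 liver stood apart from the other 3 by a gap above the critical value of Dixon's test, where chance alone gives about 1 in 20. Control liver 1 was the highest control for *Cdk6*, at 5.40 FPKM. *Usp39*-HKO liver 1 was the lowest of its group for *E2f1*, at 0.783 FPKM. Control liver 2 was the highest control for *Ccna2*, at 1.19 FPKM, and for *S100a11*, at 18.95 FPKM. For summed markers, *Usp39*-HKO liver 4 was the highest of its group in macrophage or Kupffer cell genes, at 386.4 FPKM, control liver 3 was the lowest control in T cell genes, at 1.42 FPKM, and control liver 4 was the highest control in pancreatic acinar genes, at 402.1 FPKM. The causes were not tested.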

How the results depend on the processing

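For the 10 genes, 131 of 147 alternative log2 fold changes kept their direction and their side of the threshold, 8 crossed to an adjusted p under 0.05 in the same direction, and 8 reversed. For *Wee1*, *Fbxo31*, *Cdc25a*, *Ccna2*, *Cdk1*, *Mcm5*, *Mki67* and the 5 genes nearest to *Ccnd1*, 180 of 180 kept both. Other named genes did not: *Mcm2* kept its call in 8 of 14 alternatives, *Tyms* in 8 of 15, *Rrm2* in 12, *Mcm3* in 13, *Lrat* and *Clec4f* in 9, *Csf1r* in 11 and *Cd68* in 14. *Usp39* kept its call in 10 of 15. *Rbl1* and *Mcm4* were called in 4 of 15, *Pcna* in 3 and *Cdkn1a* in 1, and *Ambra1* reversed with library totals (0.20). With library totals in place of TMM, 4 of the 10 genes and 13 of the other regulators were called, *Usp39* was no longer called (-0.18), and *Ccne2* reversed (0.14). With limma on log2(FPKM + 1), 10 other regulators were called, where 3668 of all 14340 genes were called. In that setting *Usp39* was no longer called (-0.16) and *Ccne2* reversed (0.069). With limma on log2(FPKM + 0.1), the values were 11, -0.18 and 0.17, where 3687 of all 14340 genes were called. None of these 3 settings takes out the shift of the median gene. With at least 1 FPKM required, 1 of the 10 genes was called, where 2885 of all 12269 genes tested were called. *Ccne1*, *Ccne2* and *E2f1* were not tested and have no value there.

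With 1 library left out in turn, the number of genes called over all genes tested ranged from 1931 to 3510, that of the 10 genes from 2 to 4, that of E2F target genes from 7 to 11 and that of other regulators from 3 to 4. The log2 fold change of *Usp39* ranged from -0.45 to -0.35, that of *Ccne2* from -0.35 to 0.16 (above 0 without control liver 1 or *Usp39*-HKO liver 2), and that of *Cdk6* from -0.043 to 0.24 (below 0 without control liver 3, control liver 4 or *Usp39*-HKO liver 4). *Usp39* was no longer called without control liver 4 or *Usp39*-HKO liver 4. E2F target genes were 7 without control liver 1 or control liver 4, and the 10 genes were 4 without *Usp39*-HKO liver 1. The cause was not tested. No paired analysis was possible because the labels give no replicate numbers shared between genotypes. Among the 10 genes, depth limits *Ccne1*, *Ccne2* and *E2f1* most, with 9 to 53 counts per library.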
